A study of Arabidopsis thaliana with 251 samples.

Results

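Genome-wide H3K27me3 was compared between Arabidopsis plants that carry the fusion ELF7-ZF and *fwa* plants without a transgene, using the 4 ChIP–seq peak lists of 2 data sets, out of 251 samples in the series. ELF7-ZF replicate 1 and *fwa* replicate 1 belong to SET1, and ELF7-ZF replicate 2 and *fwa* replicate 2 belong to SET2. Peaks of the 4 lists on the 5 nuclear chromosomes were merged where they overlapped by at least 1 bp, which gave 14383 regions. A region was called gained when both ELF7-ZF lists and neither *fwa* list held a peak in it, and lost in the reverse case. By this rule 136 regions were gained and 214 regions were lost, and 6124 regions had a peak in all 4 lists.

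All plants were Col-0 with the *fwa* epiallele, in which the promoter of the homeobox gene *FWA* has lost its DNA methylation, so that *FWA* is expressed and flowering is late. The ELF7-ZF plants were T2 plants of an early flowering line that expresses ELF7 fused to 3xFLAG and to the zinc finger ZF108, which was designed to bind the *FWA* promoter. The study used a *UBQ10* vector with the zinc finger at the N terminus and a native promoter vector with it at the C terminus. The name ELF7-ZF has the order of the C-terminal construct, but no source used here states the construct of this line. Leaves were taken at 4 to 5 weeks from plants grown in 16 h of light and 8 h of dark, and several grams of leaves went into each ChIP. No label says that the 2 replicates came from separate plantings, so the spread between lists may be partly technical.

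H3K27me3 is set by Polycomb repressive complex PRC2 and covers genes that are kept silent in a given tissue, in leaves for instance the floral homeotic genes, the meristem homeobox genes and the regulators of seed maturation. ELF7 is the Arabidopsis homologue of Paf1, a core subunit of the PAF1 complex, which travels with RNA polymerase II (Pol II) during elongation and is needed for H3K4 and H3K36 methylation of active genes such as *FLC*. The zinc finger binds many places besides *FWA*. These ZF sites were taken from a FLAG ChIP–seq list from unopened flower buds, another tissue than the leaves of the H3K27me3 lists, called against *fwa*. Its label names the line as TRB1-ZF, and it was read as the zinc finger binding map of the study. TRB1 is itself a DNA-binding protein, so binding by the zinc finger and by TRB1 cannot be told apart at a single site, and every result on ZF sites carries this limit. The list has 19986 regions, of which 6091 had a first listed summit of at least 4-fold and are called ZF sites here. FLAG folds given below for single regions are those of the first listed summit. The FLAG region of the *FWA* promoter had a first listed summit of 2.44-fold and a highest summit of 11.7-fold. By this rule it is not among the ZF sites, and the rule can leave out other regions whose strongest summit is not listed first.

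The *FWA* promoter is shown first because it holds the intended target. The window at chr4:13038232-13038359 (TAIR10, plus strand) holds the strongest FLAG summit of the promoter, at 13038292, and ends at the base before the annotated gene. Capitals mark the letters TACATCTT and CCATAC or their reverse complements AAGATGTA and GTATGG, where overlapping matches form 1 run of capitals.

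FWA: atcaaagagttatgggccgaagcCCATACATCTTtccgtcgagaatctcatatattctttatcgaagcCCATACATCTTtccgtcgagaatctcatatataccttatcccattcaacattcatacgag

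The words were read from the 1013 FLAG regions with a highest summit of at least 8-fold: TACATCTT is the word of 8 letters, and CCATAC the word of 6 letters outside it, whose share within 50 bases of the summit exceeded most the share 1000 bp away. TACATCTT was in 18% of the windows centred on these summits and in 0.987% of the windows 1000 bp away, and CCATAC was in 20.4% and 3.36%. Each word occurred 2 times in the *FWA* window, once in each of its tandem repeats.

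Peak number and width differed between the data sets in both lines. ELF7-ZF had 12471 and 13633 peaks, and *fwa* had 12441 and 14103 peaks, each in the order of replicates 1 and 2. Peaks covered 12.3 and 8.3 Mb in ELF7-ZF and 11.7 and 9.39 Mb in *fwa*. The median peak width was 575 and 366 bp in ELF7-ZF, against 559 and 393 bp in *fwa*, so that SET1 lists held fewer and wider peaks in both lines. ELF7-ZF covered 10.3 ± 2.8 Mb and *fwa* 10.5 ± 1.62 Mb (SD, n = 2 each), with an exact two-sided permutation p of 1 for this and for the number of peaks. Tests of 2 lists against 2 cannot give a p below 0.333. Between ELF7-ZF and *fwa*, the difference was 0.581 Mb in SET1 and -1.09 Mb in SET2.

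The same held for single regions. Both SET1 lists and neither SET2 list held a peak in 1488 regions, and both SET2 lists alone held one in 491 regions. Against this, gained regions were 0.946% and lost regions 1.49% of all regions. Within SET1, 2213 regions had a peak in ELF7-ZF only and 1620 in *fwa* only. Within SET2, 2041 regions had a peak in ELF7-ZF only and 3519 in *fwa* only, the opposite balance.

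**Figure D1:**
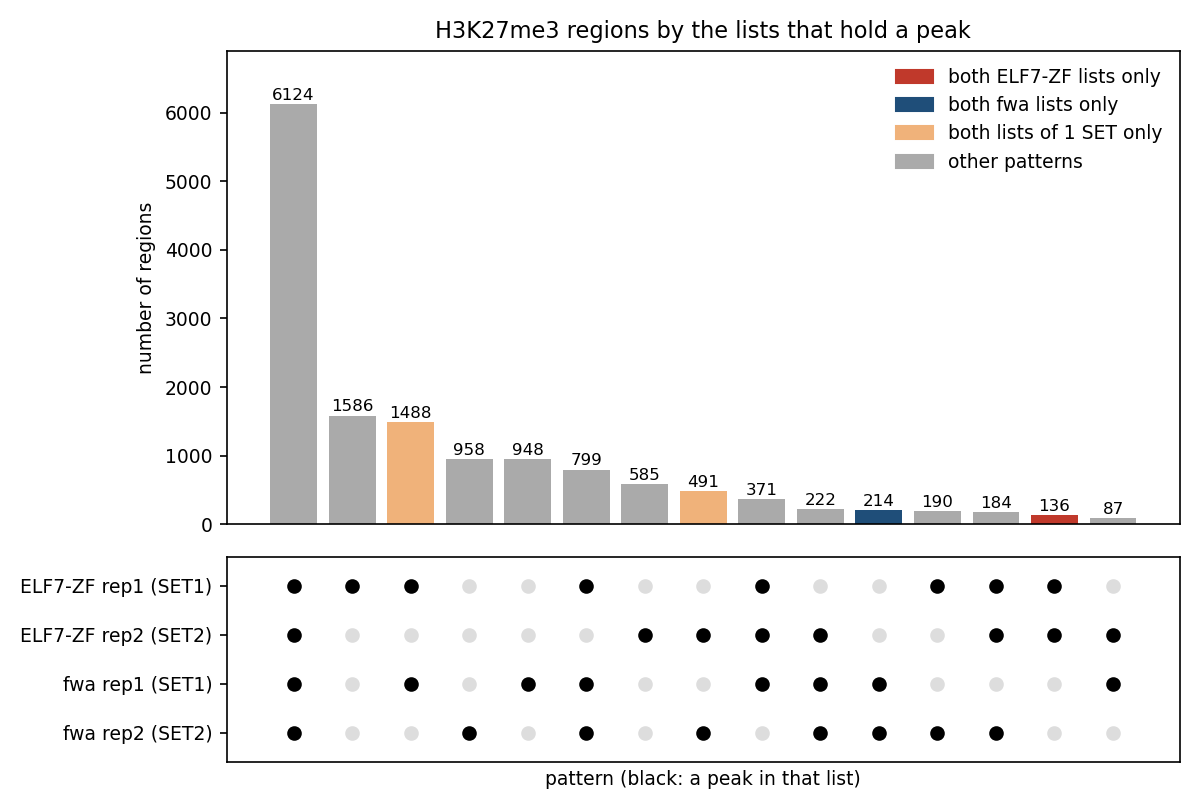
Number of merged H3K27me3 regions (y axis) for each of the 15 combinations of lists that held a peak, with black dots under each bar for the lists concerned. The gained class has 136 regions and the lost class 214, fewer than the 1488 and 491 regions found in both lists of SET1 or of SET2 only.

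Gained and lost peaks were weak. Each peak was ranked by its fold, which is the summit signal divided by the local background, among the peaks of its own list. The median percentile of gained regions was 22.5 and 24.5 in the 2 ELF7-ZF lists, and that of lost regions 21.6 and 25.5 in the 2 *fwa* lists, whereas regions with a peak in all 4 lists had medians of 68.9 to 72.6. The highest fold was 4.27 and 5.22 in gained regions and 3.96 and 5.86 in lost regions, while the lists reached 13.1 to 16.7. The lowest −log10 q of a gained region was 1.44 and 1.32, next to the lowest value of any peak in these lists, 1.31. Gained and lost regions were also short, with median widths of 307 and 334 bp, against 1411 bp for regions with a peak in all 4 lists.

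A gene overlapped 53.7% of gained, 67.3% of lost and 69.3% of all regions, so that lost regions were near the share of all regions. The start of a protein-coding gene lay in 5.15% of gained, 7.94% of lost and 23.1% of all regions, which are wider, with a median of 566 bp. Of the gained regions, 69 (50.7%) were within 1000 bp of a region with a peak in all 4 lists, as were 84 (39.3%) of the lost regions. This share was not computed for the other regions, so no excess can be read from it. The median GC content of the 300 bases around the strongest summit was 33.8% in gained regions, 38.3% in lost regions and 39% in all regions.

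**Figure D2:**
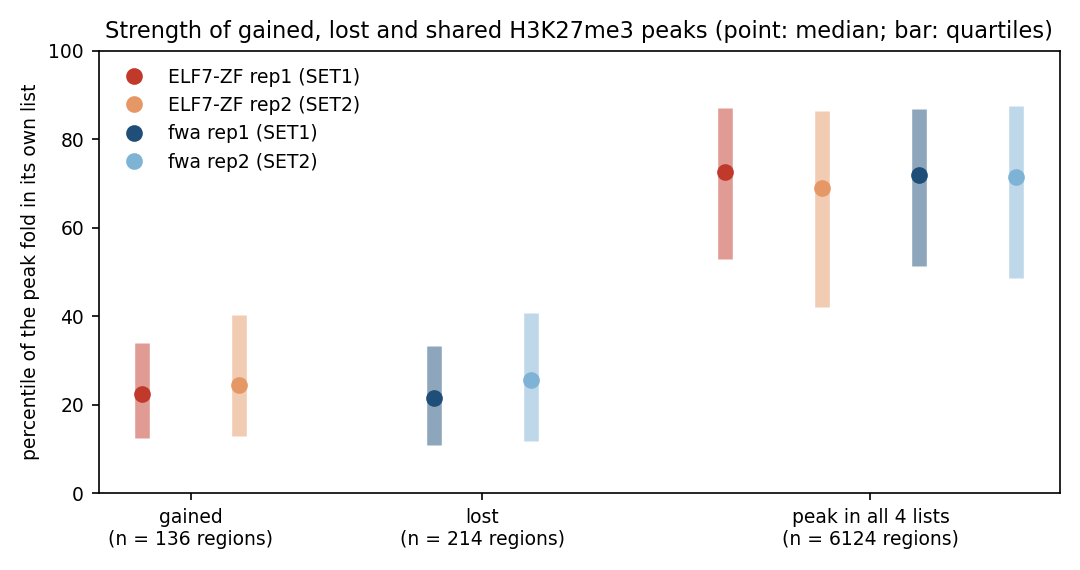
Percentile of the peak fold within its own list (y axis) for gained, lost and shared regions, with the median as a point and the quartiles as a bar. Gained and lost regions have medians of 21.6 to 25.5, below the 68.9 to 72.6 of regions with a peak in all 4 lists.

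Among gained regions with the highest rank in both ELF7-ZF lists, *GRP7* (AT2G21660) was the only gene with more than 1. *GRP7* encodes a glycine-rich RNA-binding protein that is under circadian control and promotes flowering. The region chr2:9266141-9266386 had folds of 4.13 and 3.45 in ELF7-ZF, and chr2:9264992-9265975 had folds of 3.08 and 3.92, with no *fwa* peak in either. H3K27me3 peaks covered 59.6% and 65.7% of *GRP7* in ELF7-ZF and 0% in both *fwa* lists. The gene was not free of active marks: H3K4me3 peaks covered 91.7% and 89.5% of it in ELF7-ZF, against 93.1% and 92.1% in *fwa*, and Pol II peaks covered 94.2% and 96.9% in ELF7-ZF, against 93.1% and 98.8% in *fwa*. All Pol II lists used here came from an antibody to Pol II Ser5, in SET8 (replicate 1) and SET9 (replicate 2). H3K27me3 peaks also covered *GRP7* to 51.5% and 29.4% in JMJ14-ZF, to 10.5% and 0% in LHP1-ZF and to 13.9% and 0% in MSI1-ZF. The control EYFP-ZF had them over 24.2% in replicate 1 and 0% in replicate 2, in lists of SET14 that held a peak in only 2.74% and 0.653% of the regions shared by the 4 lists.

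The other gained regions of highest rank included one within *YAB2*, a YABBY gene of abaxial identity, with folds of 3.5 and 3.59 in ELF7-ZF. This region was 189 bp long and 87 bp from a region with a peak in all 4 lists. *YAB2* as a whole was covered to 68.6% and 77.1% in ELF7-ZF and to 72.8% and 76.1% in *fwa*. One lay over *PUM25*, a Pumilio family gene, with folds of 3.49 and 3.04. Further ones were over or near AT4G03035, AT1G59724, AT2G36690, AT3G08490, AT1G48060, AT4G16000 and AT1G53180, and the highest ranked of all was that over AT4G03035, with folds of 4.27 and 4.84. Of these, AT1G59724, AT2G36690, AT3G08490 and AT1G48060 had peaks over the gene in all 4 lists.

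At the flowering repressor *MAF1*, also called *FLM*, a member of the *FLC* family, H3K27me3 peaks covered 4.57% and 41.2% of the gene in ELF7-ZF and 0% in both *fwa* lists. The gained region chr1:28956480-28956834 had folds of 2.2 and 3 in ELF7-ZF. Most of the covered length was seen in replicate 2 alone. A ZF site lay within 1000 bp of 5 of the 6 *FLC* and *MAF* genes, *MAF1* included. In other lists this held for 7 of 16 floral MADS genes, 6 of 13 meristem homeobox genes and 2 of 8 seed maturation regulators. It held for 4 of 7 boundary and auxin synthesis genes and 0 of 6 genes of the *FT* family. The share over all genes was not computed, so no excess can be read from these counts. No H3K27me3 peak was listed over *MAF1* in LHP1-ZF, MSI1-ZF or JMJ14-ZF. *RUB3*, which encodes a ubiquitin-like protein, was covered to 82.3% and 89.9% in ELF7-ZF and to 0% in both *fwa* lists. The coding sequence at the strongest summit of its gained region (chr1:4045630-4045749, TAIR10, plus strand) is given as an example of a gained peak, and it holds neither ZF word.

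RUB3: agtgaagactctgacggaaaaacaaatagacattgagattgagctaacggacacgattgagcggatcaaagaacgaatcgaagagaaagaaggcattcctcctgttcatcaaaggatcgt

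*RUB3* was also covered by peaks to 74.7% to 100% in all LHP1-ZF, MSI1-ZF and JMJ14-ZF lists, so that its absence was found in the *fwa* lists alone among the lines of SET1 and SET2.

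Among lost regions, that of highest rank lay over *LBD32*, a LOB domain transcription factor gene. Its folds were 3.59 and 3.73 in *fwa*, with no peak in ELF7-ZF. The next were over the neighbouring AT5G25990 and AT5G25995 (folds of 3.58 and 4.35), and over AT1G61330 (3.47 and 4.51). A lost region at *MEE27*, also known as *JMJ15*, an H3K4 demethylase gene, had folds of 3.17 and 3.3 in *fwa*. That at *PLL3*, a phosphatase gene, had 3.75 and 3.24. *CSY1*, a citrate synthase gene, had 2.9 and 3.14, and the region 691 bp from the laccase gene *LAC2* had 3.5 and 2.96. Of these genes, AT5G25990, AT1G61330, *PLL3* and *LAC2* had peaks over the gene in all 4 lists.

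*ACT2*, an actin gene used as a reference for expression, lost a region with folds of 3.43 and 3.1 in *fwa*. The covered share of *ACT2* was 0% in both ELF7-ZF lists, against 21.9% and 9.66% in *fwa*, and H3K4me3 and Pol II peaks lay over it in every list of both lines. In the sparse SET14 lists, H3K27me3 peaks covered *ACT2* to 32.1% and 34.6% in EYFP-ZF and to 46.3% and 34.8% in *fwa*. They covered it to 0% and 29.3% in JMJ14-ZF, to 0% and 24.4% in MSI1-ZF and to 0% in both LHP1-ZF lists, so that presence at this gene varied among lists of 1 line. The other lost regions of the highest rank were near AT5G42740 and AT3G15300 and over AT1G70500 and AT4G33120.

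Over genes, 7535 and 6517 genes had an H3K27me3 peak in ELF7-ZF, and 7499 and 7049 in *fwa*. Of the 8709 genes with a peak in at least 1 of the 4 lists, 44 (0.505%) had one in both ELF7-ZF lists only and 96 (1.1%) in both *fwa* lists only. Of these, 34 of the gained and 86 of the lost genes were protein coding. Within SET1 the counts were 558 gained and 522 lost genes, and within SET2 they were 380 and 912.

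The share of the gene body under peaks was at least 20 percentage points higher in ELF7-ZF, without overlap of the groups, at 112 genes (1.29%), and lower at 229 genes (2.63%). The largest differences were at short genes. On the higher side they were the pseudogene *CYP702A7P*, with 100% in both ELF7-ZF lists and 0% in both *fwa* lists, a snoRNA gene (AT5G05385), *RUB3*, the lncRNA genes AT1G06507 and AT1G06603, AT1G36942, *PUM25* and *MIR395a*, a microRNA gene of sulfate assimilation. *MIR395a* was covered to 100% and 55.9% in ELF7-ZF and to 0% in *fwa*. It was also covered to 100% in both lists of LHP1-ZF and of MSI1-ZF, and to 100% and 0% in JMJ14-ZF. *PUM25* was covered to 71.3% and 57.6% in MSI1-ZF, to 81.3% and 80.2% in JMJ14-ZF and to 0% in LHP1-ZF. *CYP702A7P* was covered to 91.9% and 20.7% in MSI1-ZF, to 100% in both JMJ14-ZF lists and to 0% in LHP1-ZF. Peaks over these genes were thus not particular to ELF7-ZF. On the lower side they were AT2G21980 (0% in both ELF7-ZF lists, against 100% and 82.2% in *fwa*), AT1G62978, the lncRNA genes AT4G09285 and AT1G05447, AT5G25995, *AGL85*, *LBD32* and *MIR169i*. AT1G62978 was covered to 0% in all LHP1-ZF, MSI1-ZF and JMJ14-ZF lists. AT2G21980 was covered to 0% in LHP1-ZF, to 100% and 0% in MSI1-ZF and to 94.4% and 64.4% in JMJ14-ZF. AT4G09285, *AGL85* and *LBD32* had no peak in replicate 1 of LHP1-ZF and of JMJ14-ZF. Going the other way, AT5G25995 and *MIR169i* were covered to 100% in every list of these lines.

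*AGL85*, a MADS-box gene, had no H3K27me3 peak in ELF7-ZF, against 86.4% and 69.8% of its length in *fwa*. Its H3K36me2 went the other way, with peaks over 35.4% and 88.7% of the gene in ELF7-ZF and none in *fwa*. Its H3K27me3 folds in *fwa* were low, at 2.19 and 2.21. *MIR169i* was covered to 54.4% and 0% in ELF7-ZF and to 100% in both *fwa* lists, and *LBD32* to 0% in ELF7-ZF and to 97.6% and 52.9% in *fwa*.

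Most genes in lists of well known Polycomb targets had a peak in all 4 lists. Of 16 floral MADS genes, 14 had a peak in every list, with a median covered share of 87.6% and 84.7% in ELF7-ZF and 92.8% and 88% in *fwa*. All 13 meristem homeobox genes and 7 of 8 seed maturation regulators had a peak in every list. No member of these 3 lists was gained or lost, or differed by 20 points without overlap of the groups. Genes with a peak in every list cannot be gained or lost by the rule. Over all 8709 genes with a peak, the coverage rule was met at 1.29% (higher) and 2.63% (lower), so few calls fall in lists this short. *WOX3*, a meristem homeobox gene, differed by -21 points with overlap, at 90.1% and 43.5% in ELF7-ZF and 100% and 75.7% in *fwa*. Of 9 photosynthesis genes, which are active in leaves, 7 had no peak in any list. The 2 floral MADS genes that were not marked throughout, *SVP* and *AGL24*, both regulators of the floral transition, differed by data set: *SVP* was covered to 0% and 87.7% in ELF7-ZF and to 0% and 91.3% in *fwa*, and *AGL24* to 0% and 97.5% in ELF7-ZF and to 24.8% and 100% in *fwa*.

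Among flowering genes, *FLC*, the main repressor of flowering, was covered to 98.3% and 96% in ELF7-ZF and to 97.8% and 94.3% in *fwa*. *MAF4* was covered to 61.6% and 50.2% in ELF7-ZF and to 53.6% and 35.8% in *fwa*. *MAF5* was covered to 42% and 38.9% in ELF7-ZF and to 44% and 45.2% in *fwa*, and *MAF2* and *MAF3* had no peak. Of the 6 *FLC* and *MAF* genes, only *MAF1* met the rule for a difference. The florigen gene *FT* was covered to 58.6% and 55% in ELF7-ZF and to 70.8% and 54.1% in *fwa*, and *TFL1*, the gene of its antagonist, to 100% in every list.

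In the remaining lists 3 genes met a rule. *YUC1*, a gene of auxin synthesis, was covered to 84.9% and 57.2% in ELF7-ZF and to 97.2% and 85.3% in *fwa*. *RBCS2B*, which encodes a small subunit of Rubisco, was covered to 30.5% and 0% in ELF7-ZF and to 46.4% and 57.9% in *fwa*. *RBCS2B* has near-identical copies beside it, so that its value is uncertain where only reads with 1 mapping site were kept. It carried H3K4me3 and Pol II peaks in every list of both lines, and H3K27me3 peaks in every LHP1-ZF, MSI1-ZF and JMJ14-ZF list. The third was *ACT2*.

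None of the 6 genes of the PAF1 complex, *ELF7*, *VIP3*, *VIP4*, *VIP5*, *ELF8* and *CDC73*, had an H3K27me3 peak in any of the 4 lists. The same was true of 5 H3K27 demethylase genes and of 7 of the 9 genes of PRC2 and LHP1. The 2 exceptions were *MEA* (83.6% and 77% in ELF7-ZF, 83.4% and 82.8% in *fwa*) and *FIS2* (54.1% and 22.2% in ELF7-ZF, 34.7% and 16.1% in *fwa*), which act in the endosperm.

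**Figure D3:**
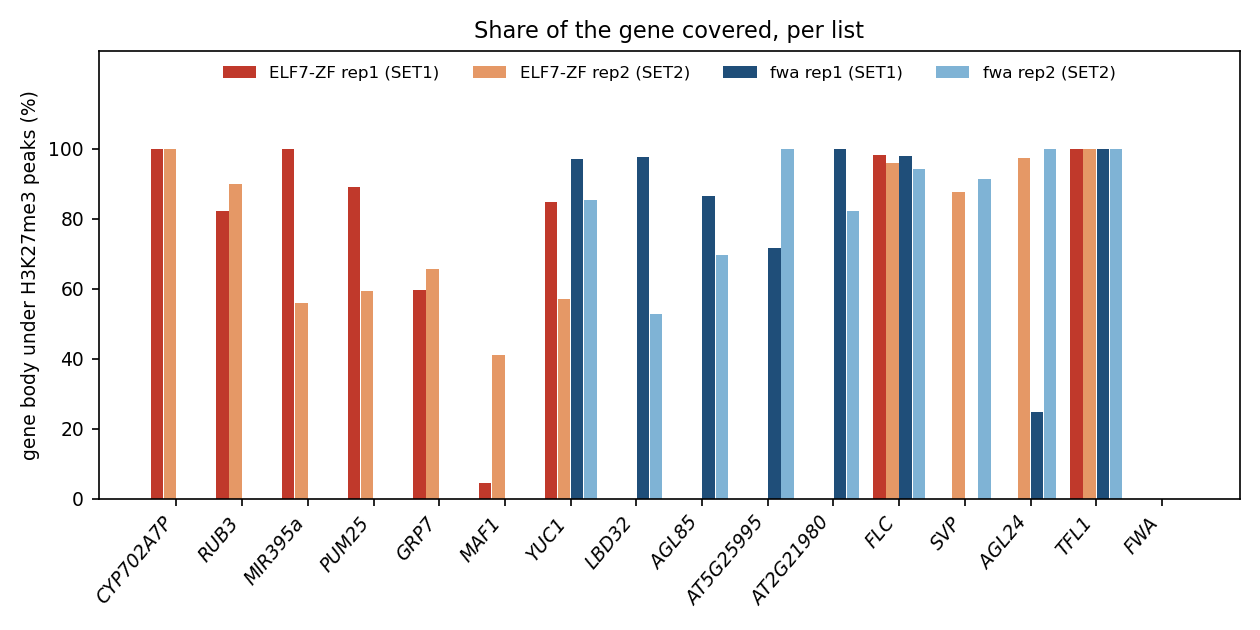
Share of the gene body under H3K27me3 peaks (y axis, percent) in each of the 4 lists for named genes. *GRP7* reaches 59.6% and 65.7% in ELF7-ZF and 0% in *fwa*, *LBD32* the reverse, *SVP* differs between SET1 and SET2 in both lines, and *FWA* is at 0 in every list.

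*FWA* itself carried no H3K27me3 peak over the gene or the 1000 bp upstream in any of the 4 lists. The nearest peak was 16716 and 16676 bp away in ELF7-ZF and 16505 and 17074 bp away in *fwa*. In the same data sets, MSI1-ZF had 2 peaks there in both replicates, which covered 4086 and 1041 bp, and LHP1-ZF had 3 peaks of 769 bp together in replicate 1 and none in replicate 2. JMJ14-ZF had none. In the sparse lists of SET14, neither EYFP-ZF nor *fwa* had a peak there, and the nearest EYFP-ZF peaks were 24911 and 349936 bp away. Those lists held few of the H3K27me3 regions seen here, so absence in them tells little.

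ZF sites overlapped 9.97% of all regions. They overlapped 7 of the 136 gained regions (5.15%, 95% Wilson interval 2.52 to 10.2%) and 34 of the 214 lost regions (15.9%, interval 11.6 to 21.4%). These intervals cover counting error only. Seen from the regions, 0.488% of those over a ZF site were gained and 2.37% were lost, and of those without a ZF site 0.996% were gained and 1.39% were lost. The excess among lost regions was not found in each data set on its own: regions with a peak in *fwa* only lay over a ZF site in 9.88% of cases within SET1, where all regions had 9.88%, and in 7.1% within SET2, where all had 8.52%. With peaks of −log10 q of at least 5 it was 11.6% of lost and 11.5% of all regions, whereas with the 10000 best peaks of each list it was 14.8% of lost and 11.1% of all regions. Gained regions were below all regions in each of these settings, at 4.02% within SET1, 4.61% within SET2, 7.87% with the stricter peaks and 7.21% with the 10000 best peaks.

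The gained regions over ZF sites with the highest FLAG folds were at AT1G11510 (7.98), *RGXT3*, a cell wall xylosyltransferase gene (6.49), AT1G53180 (6.44), AT3G25200 (5.94), *HAT9*, an HD-ZIP gene 1079 bp away (4.51), and AT1G46912 (4.41). Of these, *RGXT3*, AT3G25200 and *HAT9* had H3K27me3 peaks over the gene in all 4 lists. The lost regions over ZF sites with the highest FLAG folds were at AT1G12600 (11.1) and at *PRF4*, a profilin gene (10.4). Windows of 100 bases were read at the FLAG summit for 6 of the 7 lost regions with the highest FLAG folds. The 3 that hold a ZF word are shown for that reason, and those at AT3G43400, *XTH1* and *LAC2* hold none. The windows shown are for AT1G12600 (chr1:4287392-4287491), AT5G43620 (chr5:17521928-17522027) and AT3G42725 (chr3:14843724-14843823), on the plus strand of TAIR10 and with the ZF words in capitals. At AT1G12600 and AT3G42725 the FLAG summit lies outside the lost region, which only overlaps the FLAG region.

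AT1G12600: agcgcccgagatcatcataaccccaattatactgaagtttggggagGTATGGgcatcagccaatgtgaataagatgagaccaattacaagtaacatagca

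AT5G43620: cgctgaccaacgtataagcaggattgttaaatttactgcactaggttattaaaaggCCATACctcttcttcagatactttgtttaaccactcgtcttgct

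AT3G42725: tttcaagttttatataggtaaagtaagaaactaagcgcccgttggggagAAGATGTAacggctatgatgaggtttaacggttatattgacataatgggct

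In 300 bases around the strongest H3K27me3 summit, CCATAC (either strand) was found in 9.56% of gained, 9.35% of lost and 9.17% of all regions, and in 17.6% of the 34 lost regions over a ZF site. TACATCTT was found in 1.47% of gained, 2.34% of lost and 1.65% of all regions, and in 0 of the 34 lost regions over a ZF site. The telobox AAACCCTA, a word bound by TRB proteins that interact with PRC2, was in 6.62% of gained, 3.74% of lost and 4.68% of all regions. At the 1013 strongest FLAG summits it was in 5.82% of windows, against 1.68% of those 1000 bp away. GAGAGA, the core of the GA repeats bound by BPC proteins, was in 22.1%, 25.2% and 25.8%. A match of letters is a description and not a bound site.

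Around ZF sites, the lists of both lines differed in shape. In *fwa*, 13.3% and 11.5% of the 6091 ZF sites had an H3K27me3 peak over the FLAG summit, against 11.5% and 9.3% over positions 1000 to 3000 bp away, and in ELF7-ZF 12% and 8.59% had one at the summit, against 12.1% and 8.55% away from it. The ratio of summit to flank was thus 0.994 and 1 in ELF7-ZF, and 1.16 and 1.23 in *fwa*. The ratio averaged 1 ± 0.00743 in ELF7-ZF and 1.2 ± 0.0517 in *fwa* (SD, n = 2 each), and the groups did not overlap (exact permutation p = 0.333, two-sided, the smallest possible). It was lower in ELF7-ZF in both SETs, with every FLAG region in place of ZF sites, at the 1013 strongest regions and with stricter peaks. A wider measure did not separate the groups. Of the 6091 sites, 17.4% and 14.8% overlapped an H3K27me3 peak in ELF7-ZF, and 18.6% and 16.7% in *fwa* (exact permutation p = 0.667, two-sided).

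The ratio was also computed in other lines. JMJ14-ZF, a fusion to the same zinc finger in the same data sets, had 1.18 and 1.19. LHP1-ZF had 1.25 and 1.4, and MSI1-ZF had 1.43 and 1.53. The control EYFP-ZF was made in SET14, where the H3K27me3 lists were short: EYFP-ZF had 1373 and 940 peaks, against 2199 and 1149 for *fwa*. There the ratio was 0.684 and 0.729 for EYFP-ZF, against 1.11 and 0.923 for *fwa*, with peaks at 23 and 17 summits for EYFP-ZF, against 68 and 22 for *fwa*. These SET14 lists held a peak in 2.74% and 0.653% (EYFP-ZF) and in 8.51% and 2.47% (*fwa*) of the 6124 regions shared by the 4 lists of SET1 and SET2. All had peaks over the 9 photosynthesis genes and none over the *FT* family, so they do not give a zinc finger control for the H3K27me3 domains described here.

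**Figure D4:**
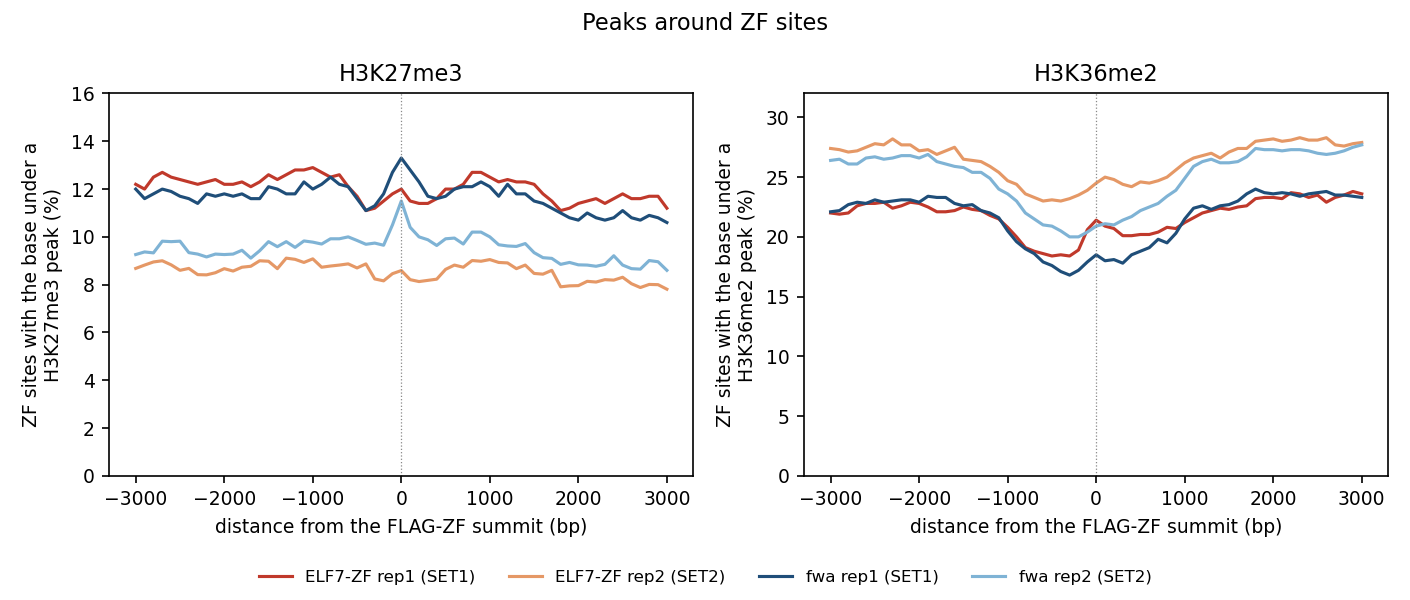
Share of the 6091 ZF sites (y axis, percent) whose base at a given distance from the FLAG summit (x axis, bp) lies under a peak of H3K27me3 (left) or H3K36me2 (right), with 1 line per list. For H3K27me3 both *fwa* lines have a maximum at the summit (13.3% and 11.5%) and the ELF7-ZF lines stand there at 12% and 8.59%; the SETs in the legend are those of H3K27me3, and the H3K36me2 lists are from SET14 (replicate 1) and SET20 (replicate 2).

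H3K36me2, a mark found over transcribed genes, was compared over the same sites. Its lists held 29961 and 19941 peaks in ELF7-ZF, against 25108 and 19042 in *fwa*. At the FLAG summit, 21.4% and 24.5% of ZF sites had an H3K36me2 peak in ELF7-ZF, against 18.5% and 20.9% in *fwa*. The ratio of summit to flank was 0.948 and 0.9 in ELF7-ZF, against 0.805 and 0.792 in *fwa* (exact permutation p = 0.333, two-sided). Of the 6091 sites, 36% and 35.5% overlapped an H3K36me2 peak in ELF7-ZF, and 30% and 30.8% in *fwa*.

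H3K36me2 peaks lay over 18.2% and 16.8% of lost regions in ELF7-ZF, against 9.35% and 11.2% in *fwa*, and over 13.7% and 12.9% of all regions in ELF7-ZF, against 9.13% and 10.7% in *fwa*. Over gained regions they were at 5.15% and 6.62% in ELF7-ZF, against 4.41% and 7.35% in *fwa*. H3K36me2 peaks present in both ELF7-ZF lists and neither *fwa* list lay in 8 of the 214 lost regions (3.74%), in 0 of the 136 gained regions, which allows a share of up to 2.21%, and in 111 of all 14383 regions (0.772%). The reverse pattern of H3K36me2 was in 0 lost regions and in 4 of all regions. The H3K36me2 lists of ELF7-ZF were longer than those of *fwa*, and the part of list length in these shares was not tested. The 8 lost regions were at AT1G11655, *AGL85*, AT1G64035, AT1G68330, AT2G43580, *CSY1*, AT5G16100 and *RAN4*, which encodes a Ran GTPase; all were named after their values were seen. Those at AT2G43580, *CSY1* and *RAN4* lay over a ZF site. At *CSY1* the H3K36me2 folds were 2.17 and 2.35 in ELF7-ZF, and at AT2G43580 they were 2.78 and 2.96. These 2 readouts came from different data sets.

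The sequence at the strongest H3K27me3 summit of the lost *CSY1* region (chr3:21723580-21723699, TAIR10, plus strand) is given because this region lost H3K27me3 peaks, held new H3K36me2 peaks and lay over a ZF site with a FLAG fold of 4.21.

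CSY1: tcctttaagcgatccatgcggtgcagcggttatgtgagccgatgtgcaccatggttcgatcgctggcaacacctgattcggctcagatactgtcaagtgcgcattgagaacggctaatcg

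Neither ZF word was in this window. The other marks were at similar shares of lost regions in both lines, with no test run. H3K36me3 peaks lay over 3.27% of lost regions in both ELF7-ZF lists, against 3.74% and 3.27% in *fwa*. H3K4me3 peaks lay over 7.48% and 6.54% in ELF7-ZF, against 7.48% and 7.94% in *fwa*. Pol II Ser5 peaks, from SET8 and SET9, lay over 9.35% and 12.6% in ELF7-ZF, against 7.48% and 11.2% in *fwa*. Peaks of ELF7-FLAG, a tagged ELF7 without a zinc finger in flower buds of complemented *elf7-3* plants, were over 5.88% and 6.62% of gained, 6.07% and 3.74% of lost, and 9.27% and 6.96% of all regions.

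In the 6124 regions with a peak in all 4 lists, the rank of the fold was compared. It was at least 20 percentile points higher in ELF7-ZF without overlap of the groups in 330 regions (5.39%), and lower in 427 regions (6.97%), with a median difference of -0.726 points. The largest increases were at AT1G54980 (percentiles of 83.4 and 62.1 in ELF7-ZF, against 14.2 and 7.45 in *fwa*), *ABCB22*, a transporter gene (86.6 and 73.7 against 27.8 and 14.8), AT2G45750, AT1G67105, *MIR869* and AT2G26695. The largest decreases were at *PCR2*, a gene of zinc transport (3.73 and 15.6 in ELF7-ZF, against 81.5 and 80.8 in *fwa*), AT2G21920, AT5G49700, AT4G19975, AT1G06810 and AT1G47885. A ZF site lay in 9.7% of the regions of higher rank, in 11% of those of lower rank and in 14.1% of all 6124 regions. The median difference was -0.917 points over ZF sites and -0.682 points elsewhere.

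By the same rule and against the same 2 *fwa* lists, LHP1-ZF had 248 gained and 670 lost regions, MSI1-ZF 271 and 658, and JMJ14-ZF 195 and 354. Gained regions lay over a ZF site in 33.5% of cases for LHP1-ZF, 31% for MSI1-ZF and 7.69% for JMJ14-ZF. All regions of these comparisons did so in 11.3%, 11.7% and 9.72% of cases. For lost regions the shares were 1.34% (LHP1-ZF), 1.06% (MSI1-ZF) and 5.37% (JMJ14-ZF). In ELF7-ZF, ZF sites overlapped 5.15% of gained, 15.9% of lost and 9.97% of all regions. As given above, its share of lost regions was not above that of all regions within SET1 or within SET2. LHP1 and MSI1 are a reader of H3K27me3 and a subunit of PRC2. JMJ14-ZF lists held a peak in 27.9% and 46.3% of the regions gained in ELF7-ZF, in 28% and 49.5% of those lost in it, and in 56.9% and 62.4% of all regions. All 4 comparisons share the *fwa* lists, so they are not independent of each other.

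**Figure D5:**
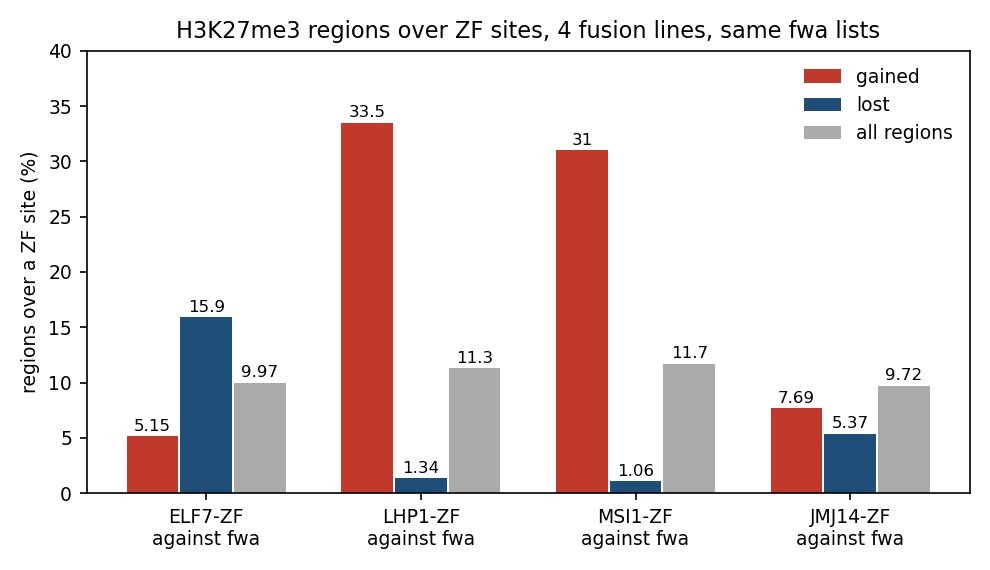
Share of gained, lost and all H3K27me3 regions that overlap a ZF site (y axis, percent) for 4 fusion lines set against the same *fwa* lists. ELF7-ZF has 5.15% of gained and 15.9% of lost regions over ZF sites, against 9.97% of all its regions. LHP1-ZF and MSI1-ZF have 33.5% and 31% of gained regions over them, against 11.3% and 11.7% of all their regions.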

How the data were processed

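The authors aligned ChIP–seq reads to TAIR10 with Bowtie2 (2.1.0), where a read needed 1 mapping site and a perfect match. Duplicates were taken out (SAMtools 1.9), peaks came from MACS2 (2.1.1), 1 list per library, and peaks common in FLAG ChIP–seq of Col-0 were dropped. The deposited fold is a ratio of signal to local background, and the deposited −log10 q comes from the same caller. The control of the histone calls is not given in the sources used here. The depth is unknown because the lists carry no counts of reads. They are not normalized to H3 or to each other, so presence, covered bases and within-list percentiles were compared and folds were not tested between lists.

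Genes came from RefSeq (TAIR10.1). The sequence context of 103 and 108 cytosines in BS-PCR tables and all peak ends matched this reference. Python 3.11.15, pandas 2.3.3 and scipy 1.17.1 were used. A simulation of peak lists returned all 150 gained and 200 lost regions that had been planted. The planted regions stood apart from each other and had no missed or broken peaks, so this checked the code and not the calls. Same-numbered lists share a SET by their labels, and over 8709 genes their deviations correlated (r = 0.545).

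Members and lists were chosen with earlier results of these data known. Named genes were *FWA*, the genes at the 12 gained and 12 lost regions of highest lower percentile, the 6 gained regions with the highest FLAG fold, the 6 largest rank and 8 largest coverage differences in each direction, list members that met a rule, and all *FLC*, *MAF* and PAF1 complex genes. A result for 1 of these genes is not reported here. The profile around ZF sites, the H3K36me2 overlap and the sequence words were chosen after seeing the data. Peaks were required to overlap by 1 bp. Alternatives were stricter peaks (−log10 q of 5), the 10000 best peaks, merging within 500 bp, single libraries left out and a replicate block.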

Additional observations from a re-analysis of the deposited data

How the results depend on the processing

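The counts of gained and lost regions depended on how peaks were chosen, while lost regions outnumbered gained ones in most settings. With −log10 q of at least 5, 89 regions were gained and 138 lost, of which 10 and 15 overlapped regions of the main calls; with the 10000 best peaks, 142 were lost; with peaks merged within 500 bp, 54 were gained and 103 lost. Leaving out 1 list or 1 SET gave 338 to 2213 gained and 458 to 3519 lost regions, and 122 to 558 gained and 219 to 912 lost genes, since fewer lists must meet the rule. The gained share of changed regions, 38.9%, was 57.7% without replicate 2 of both lines and 79.2% without ELF7-ZF replicate 2, in a range of 21.9% to 79.2% over all such omissions. A difference of 10 points in place of 20 gave 231 genes with a higher and 492 with a lower covered share, and 625 regions with a higher and 766 with a lower rank; ranks of −log10 q gave 205 and 250. The replicate block left the difference in peak number at -220 (exact paired permutation p = 1) and in covered length at -0.252 Mb (p = 1), and the summit ratio at -0.198 (p = 0.5, the smallest possible); it changed no call. Without replicate 1 or 2 the difference was -470 to 30 peaks, -1.09 to 0.581 Mb, and -0.23 to -0.167 in the summit ratio, which was -0.11 with every FLAG region, -0.185 at the strongest, -0.162 with stricter peaks and -0.176 with the 10000 best peaks. Lists without read counts, 2 per line, limit what can be tested.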
